A study of Arabidopsis thaliana with 8 samples.

Results

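Accessible chromatin was compared between generation 10 and generation 3 of RIL149, a recombinant inbred line of Arabidopsis thaliana bred from the accessions Ler and Cvi. All libraries labelled line 149 were taken, which gave 4 of the 8 ATAC-seq libraries of the series. The generation 10 group has 1 library of lineage 1 (sublineage 2) and 1 of lineage 2 (sublineage 1). The generation 3 group has 1 library of lineage 1 and 1 of lineage 2, both of sublineage 1. All 4 share the RIL149 genotype, and no other genotype or treatment is labelled. Shoots came from seedlings of 7 to 9 days grown on plates at 25 °C with 16 h of light, and the other 4 libraries of the series have the same layout in a second line, RIL50. The 4 lists held 71400 peaks on the 5 nuclear chromosomes, which merged into 22409 regions where they overlapped by at least 1 bp. The line is a single inbred genotype, and the labels do not say whether a library came from 1 plant or a pool, so the p-values below may reflect technical spread alone. Generations are those of the labels, although the peak lists themselves were named 1 generation lower.

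ATAC-seq uses the Tn5 transposase, which inserts sequencing adapters where DNA is not packed into nucleosomes, so that peaks mark accessible DNA. In Arabidopsis these sites lie mostly beside genes, at promoters and behind gene ends, where transcription factors bind. Mutation accumulation lines are propagated by selfing from single plants, and CG methylation, which MET1 copies after replication with the help of VIM proteins, changes spontaneously at some sites along such lineages. The series text introduces the RILs as differing in the rate of such epimutation.

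The generation 10 libraries listed more accessible chromatin than the generation 3 libraries in both lineages. Nuclear peaks numbered 19542 (lineage 1) and 21540 (lineage 2) at generation 10, against 17132 (lineage 1) and 13186 (lineage 2) at generation 3. The groups did not overlap, and the difference was 2410 peaks in lineage 1 and 8354 in lineage 2. Peaks covered 7.18 and 7.56 Mb at generation 10, against 6.12 and 4.26 Mb at generation 3. Median fold enrichment, the authors' ratio of pileup to local background at a peak's summit, was 4.70 and 4.78 at generation 10 and 4.40 and 4.28 at generation 3. Each of these 3 differences had an exact two-sided permutation p of 0.333, the smallest that 2 libraries against 2 can give, so none could pass 0.05. Median peak width was 294 and 282 bp at generation 10 and 287 and 259 bp at generation 3, ranges that overlapped (exact permutation p = 0.667).

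**Figure D1:**
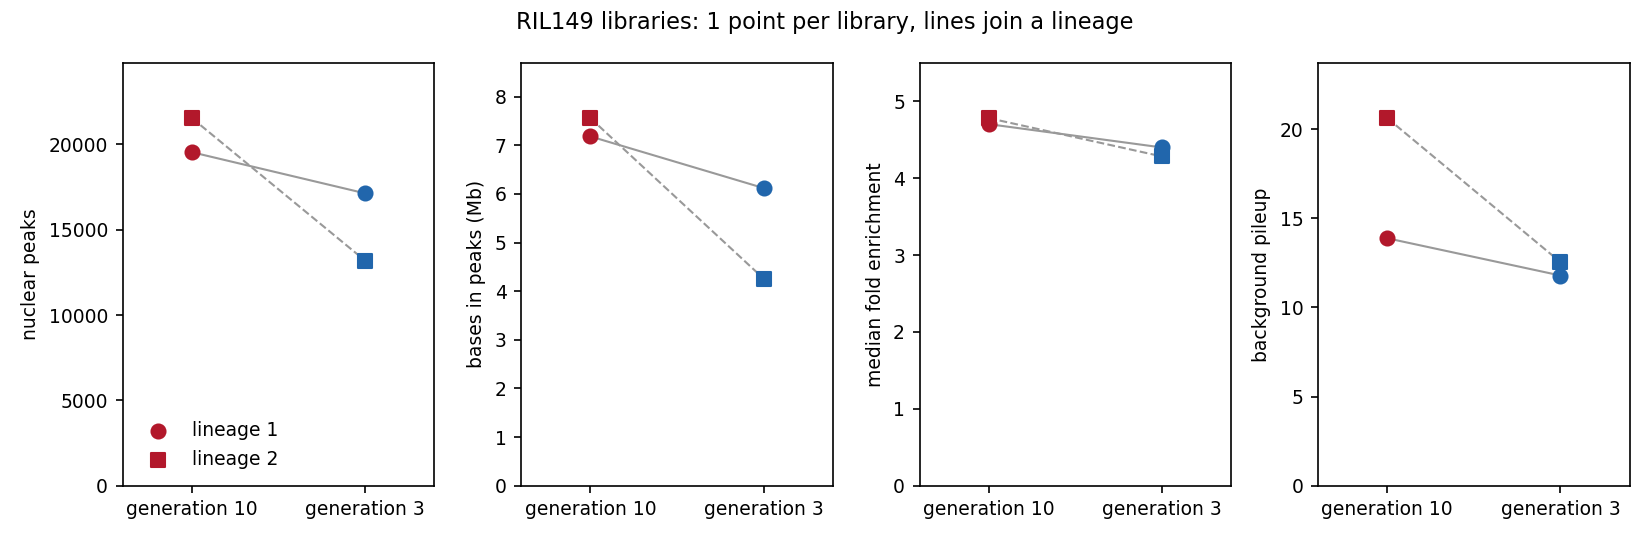
Nuclear peaks, bases in peaks (Mb), median fold enrichment and background pileup (y axes) of the 4 RIL149 libraries by generation (x axis). Each point is 1 library and a line joins the libraries of 1 lineage; in all 4 panels both generation 10 points lie above both generation 3 points, with 21540 peaks at the highest and 13186 at the lowest.

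Background pileup, an indirect measure of depth, moved with generation. The lists hold no read totals. The background pileup recovered from the peak statistics was 13.9 and 20.6 at generation 10 and 11.8 and 12.5 at generation 3. Within generation 3 the library with the higher pileup, lineage 2, had the shorter list, with 13186 peaks against 17132 in lineage 1. The part of depth in the results was not tested, and counts from lists of equal length stand beside the main counts below. Most shoot markers were listed: of 22 (16 photosynthesis genes with SPCH, MUTE, FAMA, TMM, ATML1 and PDF1) 21 and 22 had a peak at a gene end at generation 10, and 17 and 17 at generation 3. Of all protein-coding genes, 63.7% and 67.2% had one at generation 10 and 57.4% and 46.5% at generation 3. Of 7 other meristem, stomata and epidermis genes, GL2 had one in all 4 libraries, EPF1 in 3 and WUS in 2. STM and KNAT1 had one in 1 library each, and CLV3 and GL1 in none. Of 12 root identity genes, 4 and 7 had one at generation 10 and 4 and 3 at generation 3. CASP1 and SCR had one in all 4 libraries and SHR in 3. PLT1, PLT2, RHD6, SMB and BRN2 had none in any library. A peak does not show that a gene is expressed. An end peak in all 4 libraries was found for 4 of 6 seed genes, beside 45.6% of all protein-coding genes.

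Most regions were shared. Of 22409 merged regions, 11987 (53.5%) held a peak in all 4 libraries, and 3622 in all but generation 3 lineage 2. Regions listed in both generation 10 libraries and in neither generation 3 library numbered 2337, or 10.4% of all merged regions. The reverse pattern, both generation 3 libraries and neither generation 10 library, held for 19 regions, or 0.0848%. The regions of generation 3 were thus nearly all present at generation 10: of 12117 listed in both generation 3 libraries, 99.1% were listed in generation 10 lineage 1 and 99.6% in generation 10 lineage 2. Of 18210 listed in both generation 10 libraries, 85.7% were listed in generation 3 lineage 1 and 67.3% in generation 3 lineage 2.

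The asymmetry was smaller in lists of equal length, a cut that by itself brings both counts closer. When each library was cut to its 13186 best peaks, the size of the shortest list, 488 regions were listed only at generation 10 and 388 only at generation 3. Of those 388, 353 had a peak in all 4 full lists. Of the 2337 regions, 220 kept their pattern in the lists of equal length, 336 were listed in 1 generation 10 library and 1781 in none. Leaving out a library loosens the rule, so both counts can then only rise. Without generation 3 lineage 1 the regions only at generation 10 numbered 5959, and without generation 10 lineage 1 they numbered 4561. The count of 19 became 45 without generation 10 lineage 1, 104 without generation 10 lineage 2, 63 without generation 3 lineage 1 and 326 without generation 3 lineage 2.

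**Figure D2:**
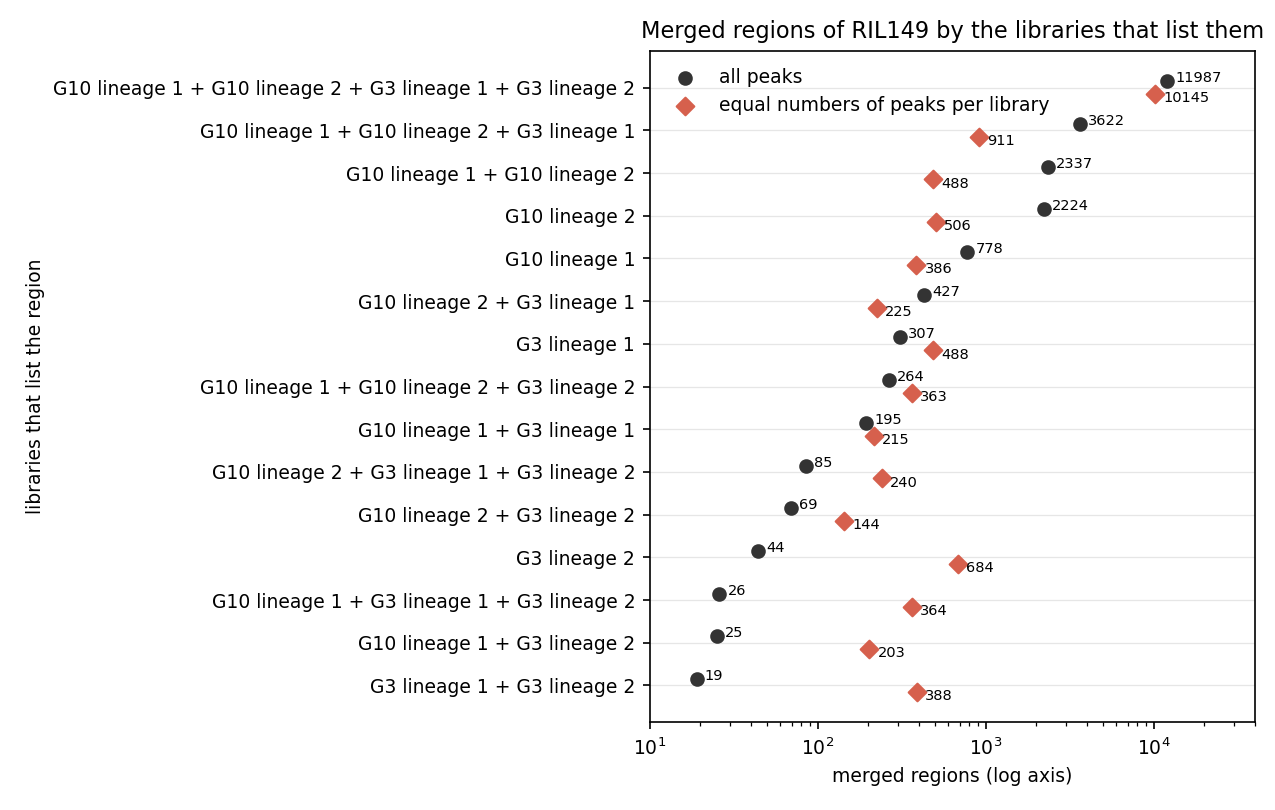
Merged regions (x axis, log scale) for each set of RIL149 libraries that list them (y axis), with all peaks (circles) and with equal numbers of peaks per library (diamonds). Regions listed in both generation 10 libraries alone numbered 2337 with all peaks and 488 with equal numbers, and those listed in both generation 3 libraries alone 19 and 388.

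Strong regions were listed at both generations. Among regions listed in both generation 10 libraries with a mean fold under 2.5, 48.4% were in neither generation 3 list. The share was 42.6% at a fold of 2.5 to 3, 25.5% at 3 to 4, 1.62% at 5 to 7 and 0.131% at 7 to 10. At 4 to 5 it came to 248 of 2726 regions, and at a mean fold of 10 or more to 0.0360%, a single region. Generation 3 lineage 2, the shortest list, held 25.6% of the regions with a fold under 2.5, 59.4% of those at 4 to 5 and 99.8% of those at 10 or more. The median of the mean fold at generation 10 was 3.00 for the 2337 regions and 6.82 for those listed in all 4 libraries. This comparison describes the regions and was not tested, since the same lists chose them.

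**Figure D3:**
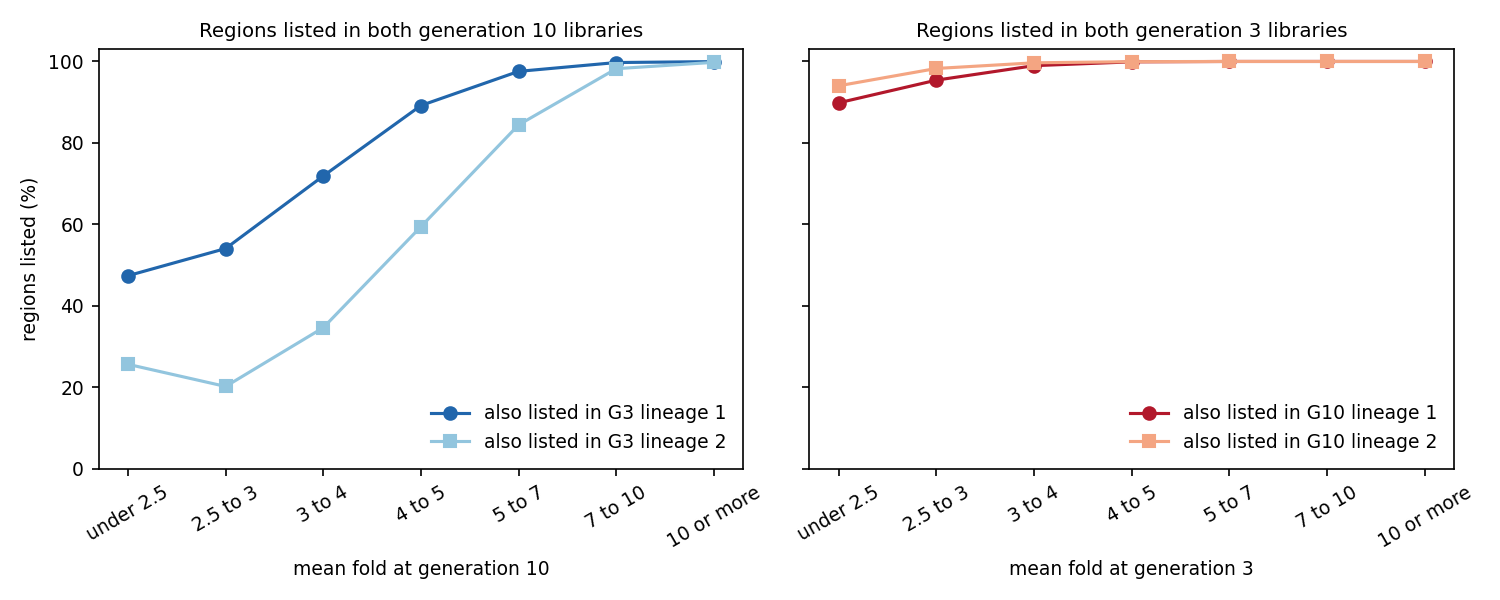
Share of regions also listed in each library of the other generation (y axis, %) by mean fold (x axis), for regions listed in both generation 10 libraries (left) and in both generation 3 libraries (right). The 2 generation 3 libraries listed 47.4% and 25.6% of the weakest generation 10 regions and nearly all of the strongest, whereas the generation 10 libraries listed 89.9% or more in each bin.

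The regions only at generation 10 lay where other regions lie. Of them 80.4% touched an end of a protein-coding gene (from 1000 bp outside to 200 bp inside), against 81.3% of all merged regions, and 7.02% lay in gene bodies alone, against 5.68%. Gene-poor windows of 500 kb held 3.55% of them and 3.36% of all regions. Many were also accessible in RIL50, whose libraries took no part in choosing them. RIL50 libraries listed 57.9% and 41.4% of them at generation 10 and 55.5% and 50.1% at generation 3, against 79.2%, 70.2%, 79.0% and 77.6% of all merged regions. All 4 RIL50 libraries held 507 of them (21.7%) and no RIL50 library held 466 (19.9%). In RIL50 itself, 79 (3.38%) were listed at generation 10 alone and 89 (3.81%) at generation 3 alone, against 1.04% and 2.15% of all merged regions.

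Named regions only at generation 10 are those with the highest mean fold beside a gene with a symbol that kept the pattern in lists of equal length. The first was next to GRP3S, which encodes a short glycine-rich protein, at chr2:1968792-1968918 (TAIR10), with folds of 9.34 and 9.90 at generation 10 and no peak at generation 3. No RIL50 library listed it. A region next to FER4, which encodes a plastid ferritin that stores iron, at chr2:16833271-16833433, had folds of 4.64 and 8.70 at generation 10. In RIL50 the FER4 region had a peak in both generation 3 libraries and in no generation 10 library, the opposite pattern.

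The region next to CBF2, a transcription factor of the cold response, at chr4:13016226-13016380, had folds of 6.32 and 6.15 at generation 10 and none at generation 3, and all 4 RIL50 libraries listed it. GSO1, a receptor kinase of the Casparian strip barrier, had a region inside the gene with folds of 5.64 and 7.63 at generation 10. Regions inside ACC1, the acetyl-CoA carboxylase of fatty acid elongation, and TUBG1, a gamma-tubulin that nucleates microtubules, had folds of 4.77 and 7.63 and of 4.90 and 6.80 at generation 10. Both were listed in all 4 RIL50 libraries, as were those of GSO1, FBS2 (an F-box protein), CPL4 (a phosphatase of the RNA polymerase II tail) and UGT73C7 (a glycosyltransferase). The region inside PDIL5-4, of the protein disulfide isomerase family, was in no RIL50 library and had folds of 4.74 and 6.98. Those of emb1345 (5.51 and 8.14) and Pnsl5 (5.71 and 7.45), a lumenal subunit linked to the chloroplast NDH complex, were in 2 and 3 RIL50 libraries. Among regions without a gene symbol the strongest, picked after its values were seen, was inside AT5G59670, with folds of 8.87 and 11.9 at generation 10, in no RIL50 library.

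The 19 regions only at generation 3 were weak, with mean folds of 1.64 to 3.72. By the same rule 1 of them was named: the region next to TPS7, a trehalose-phosphate synthase family member, at chr1:1954574-1954741, with no peak at generation 10 and folds of 3.45 and 2.92 at generation 3. Of the other 18, 3 kept the pattern in lists of equal length and the rest were listed there in 1 generation 3 library. Regions with a symbol that did not keep it were named after their values were seen. They lay next to MSRB5 (methionine sulfoxide reductase), PS2 (a phosphatase induced by phosphate starvation), CCR3, ACR8 (an ACT domain protein) and BBD1, and inside SGR9, AGP3 and SZF1. RIL50 libraries listed 31.6% and 26.3% of the 19 at generation 10, against 52.6% and 78.9% at generation 3. In RIL50, 6 of the 19 had a peak in both generation 3 libraries and neither generation 10 library, PS2 and ACR8 among them, and 0 had the opposite pattern. Among all merged regions 2.15% had that generation 3 pattern in RIL50 and 1.04% the opposite.

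Counted by genes, end peaks followed the same pattern. Of 27444 protein-coding genes, 17481 and 18440 had an end peak at generation 10 and 15761 and 12773 at generation 3. Genes with end peaks in both generation 10 and no generation 3 library numbered 1579, or 5.75%, and 1 gene, or 0.00364%, had the reverse. With lists of equal length the counts were 497 and 155. Leaving out a library can only raise these counts. The first count was 4385 without generation 3 lineage 1 and 2656 without generation 10 lineage 1. The second was 5 without generation 10 lineage 1, 44 without generation 10 lineage 2, 8 without generation 3 lineage 1 and 89 without generation 3 lineage 2.

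Of 222 genes in 20 functional lists, 122 had an end peak in all 4 libraries, 42 in none, 21 only at generation 10 and 0 only at generation 3. The 21 are 9.46% of the list genes, beside 5.75% of all protein-coding genes. Housekeeping genes had end peaks in all 4 libraries in 7 of 7 cases, clock and light signalling genes in 18 of 19 and photosynthesis genes in 14 of 16. The other 2 photosynthesis genes were listed only at generation 10. LHCB3, a light-harvesting protein of photosystem II, had folds of 3.49 and 4.53 at generation 10, and GLK2, a transcription factor of chloroplast development, had folds of 3.90 and 4.49. The secondary wall regulators MYB54, MYB58 and NST1 were listed only at generation 10 (3 of 15 in their list), with folds of 3.76 and 4.86, 4.77 and 5.09, and 3.90 and 5.09. These 3, GLK2, CBF2 and HSP17.4, a small heat shock protein with folds of 4.57 and 4.21, kept the pattern in lists of equal length.

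Of 57 genes in the 6 lists of DNA methylation and chromatin, 21 had an end peak in all 4 libraries, 17 in none and 8 only at generation 10 (14.0%, beside 5.75% of all protein-coding genes). MET1, the CG maintenance methyltransferase, had end peaks in all 4 libraries, with a highest fold of 10.5 and 10.8 at generation 10 and 6.88 and 3.84 at generation 3. DDM1, the remodeller that CG maintenance needs, had 7.19 and 9.30 at generation 10 and 5.79 and 4.95 at generation 3. These folds are not adjusted for the higher median fold of the generation 10 libraries. In RIL50 the generations overlapped at both genes. MET1 had 6.79 and 6.98 at generation 10 and 7.00 and 5.14 at generation 3 there, and DDM1 6.37 and 8.60 against 7.50 and 4.80. VIM1 to VIM5, which bind hemimethylated CG sites, had no end peak in any RIL149 library. They are close paralogs, and the treatment of reads they share is not stated. The H3K9 methyltransferase gene SUVH5 was listed only at generation 10 (3.36 and 5.13), as was IBM1 (3.29 and 2.96), an H3K9 demethylase that protects gene bodies from non-CG methylation. The same pattern held for DRD1 (3.22 and 3.61), a remodeller of RNA-directed DNA methylation, HEN1 (4.03 and 4.07), which methylates small RNAs, and IDM1 (2.49 and 2.59), a histone acetyltransferase of demethylation. H1.2, a linker histone (3.16 and 3.24), HTA9, an H2A.Z histone (3.36 and 6.89), and CLF, a Polycomb H3K27 methyltransferase (3.76 and 3.79), completed the 8. None of these 8 kept the pattern in lists of equal length. The remaining list genes only at generation 10 were PAD4 of defence signalling, HSP70, COBL9 of root hairs, the stem cell regulator WUS, and ATML1 and PDF1 of the epidermis, with folds of 2.22 to 3.61. At PAD4 the pattern held for the gene ends alone: over the gene and 1000 bp on both sides peaks covered 712 and 453 bp at generation 10 and 306 and 163 bp at generation 3, and in lists of equal length 0 and 0 bp at generation 10 and 306 and 163 bp at generation 3.

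The strength of shared regions was tested over the 11987 regions listed in all 4 libraries. The test was limma on log2 of the highest fold per region, centred on each library's median. Before centring the median region was 0.40 higher at generation 10 on the log2 scale, so changes are relative to that shift. After Benjamini-Hochberg adjustment 0 regions (0%) were higher and 1 region (0.00834%) was lower at generation 10. At an unadjusted p under 0.05 there were 567 higher and 1275 lower regions, with 717 and 827 after quantile normalization and 4013 and 10 without centring. The change had the same sign in both lineages for 63.3% of the regions. Lineage numbers were read as pairing the generations by descent, and with lineage as a block the counts were 34 higher and 159 lower. Without generation 3 lineage 1 they were 274 higher and 921 lower, without generation 10 lineage 1 they were 0 and 3, and without either of the lineage 2 libraries 0 and 0.

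The called region lay next to SDI1 (ATSDI1 in the gene table), a gene induced by sulfur deficiency whose product represses glucosinolate synthesis, at chr5:19807769-19808123. Its fold was 2.15 and 2.08 at generation 10 and 4.69 and 3.18 at generation 3. The groups did not overlap, and the centred log2 change was -1.31 ± 0.19 (SE, n = 2 per group; limma adjusted p = 0.0194). It was -1.34 in lineage 1 and -1.27 in lineage 2. The call was lost without centring (-0.87, adjusted p = 0.0896), with quantile normalization (adjusted p = 0.201), with the mean of the region's peaks (adjusted p = 0.0769), without generation 10 lineage 2 (adjusted p = 0.265) and without generation 3 lineage 2 (adjusted p = 0.0663). In lists of equal length the SDI1 region was no longer listed in all 4 libraries.

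Other named regions of lower fold at generation 10 did not pass the adjustment. The next by p lay beside LSU3, a gene of the low-sulfur response, at chr3:18373032-18373395, with folds of 2.36 and 1.78 at generation 10 and 3.48 and 3.73 at generation 3. Its centred log2 change was -1.25 ± 0.21 (SE; limma adjusted p = 0.0829, and 4.46e-06 with lineage as a block). In RIL50 the LSU3 region was listed in both generation 3 libraries and in neither generation 10 library. MAP65-7, of the microtubule bundling family, had folds of 2.54 and 2.19 at generation 10 and 3.65 and 3.32 at generation 3. BXL1, a beta-xylosidase of the cell wall, had 2.00 and 2.29 at generation 10 and 3.86 and 2.51 at generation 3. The casein kinase gene ckl12 had 3.98 and 4.22 at generation 10 and 5.84 and 5.90 at generation 3. STP1, a monosaccharide transporter, had 3.06 and 2.73 at generation 10 and 4.61 and 3.40 at generation 3. None of these 5 regions had groups that overlapped, and their limma adjusted p ran from 0.0829 to 0.104.

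The 6 named regions of higher fold at generation 10 were not called either, with limma adjusted p from 0.0920 to 0.107. ECS1, a cell wall protein gene, had folds of 7.19 and 7.49 at generation 10 and 2.97 and 2.44 at generation 3, a centred log2 change of 1.01 ± 0.18 (SE). PYL6, an abscisic acid receptor, had 6.68 and 8.33 at generation 10 and 2.81 and 2.58 at generation 3, a change of 1.03 ± 0.19 (SE). In both regions each generation 10 library exceeded each generation 3 library. ARR9, a repressor of cytokinin signalling, had 7.73 and 9.67 at generation 10 and 3.67 and 3.32 at generation 3. LHB1B1, a light-harvesting chlorophyll protein, had 12.8 and 15.03 at generation 10 and 7.19 and 4.58 at generation 3. ILL6, an amidohydrolase of hormone conjugates, and CFM2, a splicing factor of chloroplast introns, had 7.19 and 7.26 and 6.92 and 7.40 at generation 10, against 3.67 and 2.58 and 3.75 and 2.44 at generation 3. With lineage as a block all 12 named regions had a limma adjusted p under 0.05. They were named by low p on the same values and for the same sign in both lineages. Neither the block result nor the lack of overlap between generations is thus separate evidence for them.

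**Figure D4:**
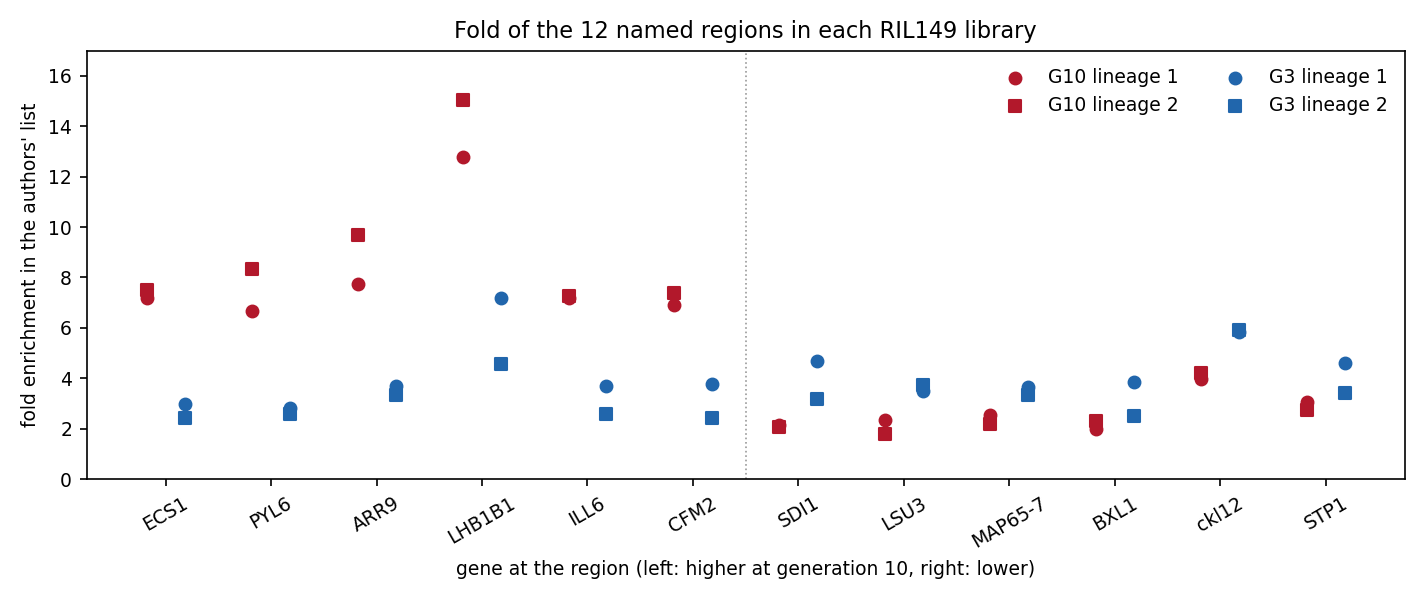
Fold enrichment in the authors' lists (y axis) of the 12 regions named by the fold comparison (x axis, by gene), 1 point per RIL149 library. At SDI1 the generation 10 points lie at 2.15 and 2.08 and the generation 3 points at 4.69 and 3.18. In each of the 12 regions the generations do not overlap, which their choice by low p favours.

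**Figure D5:**
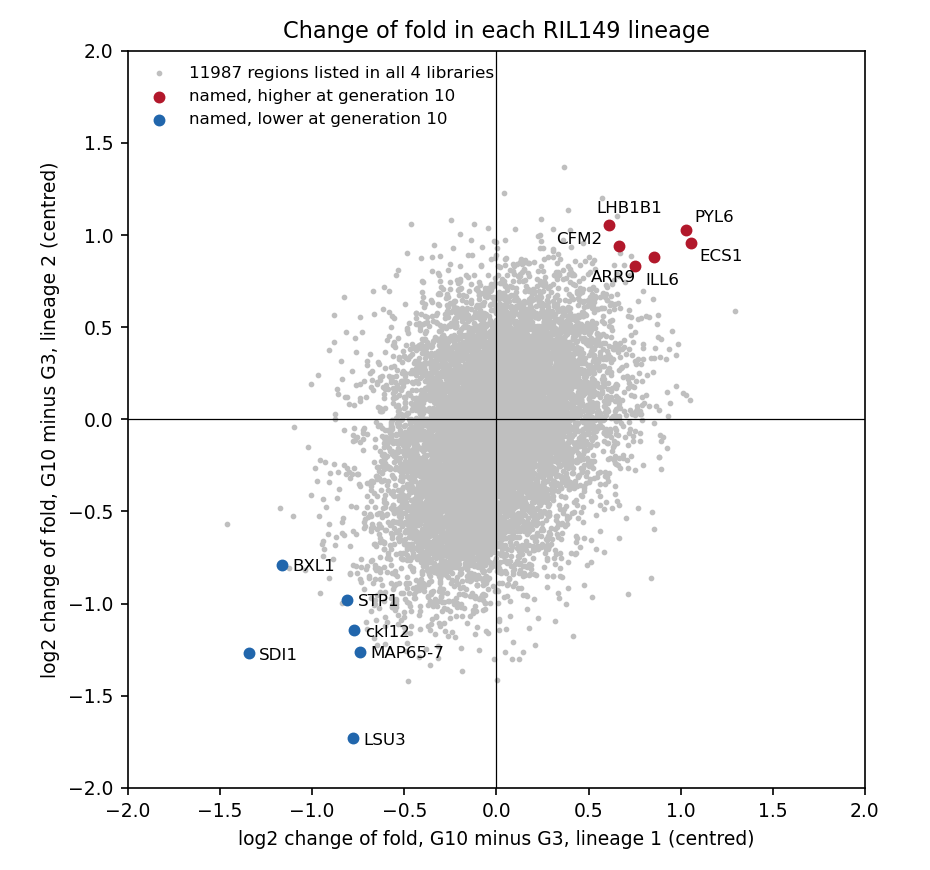
Centred log2 change of fold at generation 10 minus generation 3 in lineage 1 (x axis) and lineage 2 (y axis) for 11987 regions, with the 12 named regions coloured. SDI1 lies at -1.34 and -1.27, apart from the main cloud, and LSU3 at -0.78 and -1.73.

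Peak width showed a change of more than 2-fold more often than fold did. Over the same 11987 regions, 105 were wider and 15 narrower by more than 1 on the centred log2 scale, against 2 higher and 5 lower in fold. Limma on log2 of the bases in peaks called 0 regions (0%) wider and 0 (0%) narrower at generation 10, with 587 wider and 399 narrower at an unadjusted p under 0.05. Those unadjusted counts were 1598 and 35 without centring and 1413 and 2736 without generation 3 lineage 1. With lineage as a block the 12 regions named for width all had a limma adjusted p under 0.05, the highest being 0.0249 at ACR5. They too were named by low p and the same sign in both lineages, so this is no separate evidence. In the block fit 223 regions were wider and 48 narrower. Without generation 10 lineage 1 the counts were 32 and 7, and without generation 10 lineage 2 they were 37 and 9.

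Without the block none of the regions named for width was called. PHYA, the far-red light receptor, had a region of 484 and 621 bp at generation 10 and 144 and 135 bp at generation 3 (centred log2 change 1.66 ± 0.20, SE; limma adjusted p = 0.132). EMB1923, needed for embryo development, had 713 and 613 bp at generation 10 and 184 and 145 bp at generation 3. PAR1, a repressor of shade avoidance, had 500 and 527 bp at generation 10 and 150 and 128 bp at generation 3. ARF2, an auxin response factor, had 1041 and 988 bp at generation 10 and 368 and 245 bp at generation 3. TPP and ADS2, a desaturase, had 628 and 516 bp and 683 and 616 bp at generation 10, against 162 and 161 bp and 249 and 199 bp at generation 3. In these 6 regions each generation 10 library held more than each generation 3 library, which their choice by low p favours.

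Among the narrower regions SDI1 and LSU3 stood first again. The SDI1 region held 136 and 147 bp at generation 10 and 355 and 255 bp at generation 3 (centred log2 change -1.41 ± 0.17, SE; limma adjusted p = 0.132). LSU3 had 136 and 134 bp at generation 10 and 301 and 267 bp at generation 3. LSU1, the neighbouring gene of the same family, had 143 and 143 bp at generation 10 and 223 and 206 bp at generation 3, in a region at chr3:18376218-18376450 that RIL50 listed in both generation 3 libraries alone. PYD4, of pyrimidine catabolism, had 151 and 152 bp at generation 10 and 489 and 245 bp at generation 3. ARA12, a subtilisin-like protease, had 164 and 232 bp at generation 10 and 376 and 343 bp at generation 3. ACR5, an ACT domain protein, had 483 and 478 bp at generation 10 and 825 and 605 bp at generation 3. Width and fold come from the same peaks, so they are not independent measures of SDI1 or LSU3.

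Across whole genes the same difference appeared as bases in peaks over the gene and 1000 bp on both sides. Both generation 10 libraries exceeded both generation 3 libraries at 11430 protein-coding genes (41.6%), and the reverse held at 168 genes (0.612%). In lists of equal length the counts were 7611 and 592, 146 of the 168 genes were among the 592, and 170 of the 11430 genes had the opposite order. Leaving out a library can only raise the count of 168. It became 359 without generation 10 lineage 1 and 528 without generation 10 lineage 2. Without generation 3 lineage 1 it was 343, and without generation 3 lineage 2 it was 2351. LSU1 had 281 and 392 bp at generation 10 and 1024 and 687 bp at generation 3. LSU3, whose window overlaps that of LSU1, had 370 and 362 bp at generation 10 and 633 and 579 bp at generation 3. At SDI1 the full lists gave 709 and 698 bp at generation 10 and 651 and 502 bp at generation 3, although its named region was narrower at generation 10. With equal numbers of peaks the order at SDI1 reversed, with 311 and 309 bp at generation 10 and 651 and 502 bp at generation 3.

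The change in peak number did not have the same direction in the other line. In RIL149 the mean difference, generation 10 minus generation 3, was 5382 peaks, and in RIL50 it was -896, with -297 in lineage 1 and -1495 in lineage 2. The difference of 6278 had an exact two-sided permutation p of 0.333, the smallest that 2 lineages against 2 can give. Background pileup in RIL50 was 20.5 and 8.88 at generation 10 and 8.71 and 25.3 at generation 3, so the generations overlapped there, which they did not in RIL149. Of the 168 genes with more bases in peaks at generation 3 in RIL149, 60 (35.7%) had the same order in RIL50, beside 11.6% of all protein-coding genes, and 2 had the opposite order. Of the 11430 genes with more at generation 10 in RIL149, 1244 (10.9%) had the same order in RIL50, beside 6.76% of all genes, and 1725 (15.1%) had the opposite order, beside 11.6%. The shares over all genes include genes without any peak, which can have neither order. The order required no minimum margin: among the 60 genes the smallest gap over both lines ran from 295 bp at LSU1 to 1 bp at SQD2. Neighbouring genes with the same peaks in their windows, such as AT1G52770 and AT1G52780, were counted separately. LSU1 in RIL50 had 492 and 233 bp at generation 10 and 1415 and 1356 bp at generation 3, and LSU3 had 332 and 0 bp at generation 10 and 761 and 534 bp at generation 3.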

How the data were processed

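Per the labels' protocols, nuclei from about 200 mg of shoots were tagmented for 30 min at 37 °C, and both ends of fragments were read for 150 bp. Tools listed in the submitters' processing notes are MACS2 2.2.9.1, BWA 0.7.17, Trimmomatic 0.39 and Picard, with TAIR10 as the build. No source used here states read shifting or organelle filtering. The authors deposited 1 narrowPeak list per library: fold is the authors' ratio at the summit, p and q are −log10 values as deposited, and the score column, also deposited, was not analysed. Peak positions are as deposited.

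Members and gene lists were chosen with earlier results of these data known. Overlapping peaks of the 4 lists were merged (1 bp or more), without a test per region for presence. Fold and width per region were fitted with limma 3.58.1 in R 4.3.3 over regions listed in all 4 libraries, with Benjamini-Hochberg adjustment over all of them, and library values were compared with exact permutation tests over 6 arrangements. The fit was tested on simulated data. The presence rule named up to 12 regions per direction, by mean fold, that kept their pattern in equal-length lists. The fits named 6 per direction, the called ones or else those with the lowest p. Only regions at a gene with a symbol and with the same sign in both lineages could be named. List genes were named when their end peaks were at 1 generation alone. A region was assigned to the gene holding its middle, otherwise to the nearest gene within 1000 bp. Gene names came from a RefSeq table of TAIR10.1, without strand or exons. All 222 list genes matched by identifier, and none of the table's coordinates is printed. Lineage numbers were read as pairing libraries by descent, which the sample titles do not state. In lineage 1 the sublineage differs between the generations. Deviations of libraries of the same lineage correlated weakly (0.0299 for fold, 0.0173 for width). Background pileup was solved from fold and p with the Poisson relation of MACS2. TAIR10 is the Col-0 sequence, whereas all 4 libraries carry Ler and Cvi alleles.

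Alternatives were a −log10 q of at least 5, equal numbers of peaks, a fold of at least 2, merging within 100 bp, coverage of at least 50% of a region, other scalings, the lineage block, a gene window of 500 bp and each library left out. The bases in peaks per gene, their alternatives and the block with quantile normalization were added after seeing the data. Python 3.11.15 with pandas 2.3.3, numpy 2.4.6 and scipy 1.17.1 was used.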

Additional observations from a re-analysis of the deposited data

Results flagged for a closer look

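The change in peak number between generations differed between the lines: both RIL149 lineages listed more peaks at generation 10 and both RIL50 lineages fewer, a difference in mean change of 6278 peaks, with an exact permutation p of 0.333, the smallest possible here. Organelle peaks, which no comparison used, were also more numerous at generation 10 in RIL149. Chloroplast peaks numbered 78 and 78 at generation 10 and 77 and 72 at generation 3, a difference in means of 3.5. Mitochondrial peaks numbered 233 and 236 at generation 10 and 217 and 213 at generation 3, a difference in means of 19.5. In RIL50 the generations overlapped for both organelles, with 76 and 82 chloroplast peaks at generation 10 and 79 and 78 at generation 3, and 219 and 235 mitochondrial peaks at generation 10 and 218 and 242 at generation 3.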

How the results depend on the processing

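No alternative reversed the fitted change of a named region or a difference between libraries. Bases in peaks per gene did reverse with equal numbers of peaks at 170 of 11430 genes, SDI1, BXL1 and PAD4 among them. Equal numbers of peaks moved the regions only at generation 10 to 488 and only at generation 3 to 388, the genes with end peaks to 497 and 155, the genes with more bases in peaks to 7611 and 592, the regions wider and narrower to 4 and 3, and the regions of lower fold to 0. With a −log10 q of at least 5 there were 8 regions and 0 genes only at generation 3 and 0 regions of lower fold. Requiring a peak over 50% of the region gave 35 regions only at generation 3, a fold of at least 2 gave 4 genes and the window of 500 bp gave 2. No centring, quantile normalization and the mean of the region's peaks each gave 0 regions of lower fold. The lineage as a replicate block gave 34 regions of higher and 159 of lower fold, 223 wider and 48 narrower, and with quantile normalization 45, 43, 28 and 6. With 1 residual degree of freedom the block leans on the spread shared over regions. The named regions of fold and of width, chosen by low p and the same sign in both lineages, all had a limma adjusted p under 0.05 with it. For the library measures the replicate block left the differences as they were (5382 peaks, exact sign-flip p = 0.5). Leaving out 1 library gave 2601 to 5959 regions only at generation 10 and 45 to 326 only at generation 3, 1738 to 4385 and 5 to 89 genes with end peaks, 343 to 2351 genes with more bases at generation 3, 0 to 274 regions of higher and 0 to 921 of lower fold, and 0 to 37 wider and 0 to 9 narrower. The counts of regions at 1 generation alone, of genes with end peaks and of genes with more bases can only rise when a library is left out. In the fits the lone library is assumed to vary like the others, and the cause of shifts in the fits was not tested. Regions named by presence could not change pattern with equal numbers of peaks, a fold of at least 2 or a library left out. For the named regions 289 alternative values, these among them, kept their listing pattern or, in the fits, their side of the threshold. Another 51 passed that threshold and 5, all of SDI1, no longer did. Read totals are not in the lists, and the part of depth was not tested. A fold under 2 was found for 1.67% and 3.09% of peaks at generation 10 and 1.33% and 1.33% at generation 3, and an unlisted region may lie below the threshold of its library.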

Other observations

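Gene lists of 3 nutrient responses were chosen after values of these data were seen, those of LSU3, SDI1 and PS2 among them. The sugar starvation list holds BXL1, which the fold comparison had already named, though not called, for a region of lower fold at generation 10. The lists thus carry no test and are not independent of these data. The measure is the number of bases in peaks over a gene and 1000 bp on both sides, and a gene counts where both libraries of a generation exceed both of the other. Of 11 genes induced by sugar starvation, 11 were higher at generation 10 in RIL149, where 41.6% of all protein-coding genes were, and 8 were so with equal numbers of peaks, where 27.7% of all genes were. In those lists 1 of the 11 reversed: BXL1 had 2297 and 2171 bp at generation 10 and 2003 and 1669 bp at generation 3 with all peaks, but 1522 and 1653 bp at generation 10 and 2003 and 1669 bp at generation 3 with equal numbers. In RIL50, 5 of the 11 were higher at generation 10 and 1 at generation 3, beside 6.76% and 11.6% of all genes. ASN1, an asparagine synthetase, had 684 and 775 bp at generation 10 and 668 and 474 bp at generation 3 in RIL149, and 523 and 569 bp at generation 10 and 349 and 333 bp at generation 3 in RIL50. KINBETA1, a subunit of the SnRK1 energy-sensing kinase, had 1447 and 1332 bp at generation 10 and 872 and 555 bp at generation 3 in RIL149, and 1520 and 1258 bp at generation 10 and 813 and 563 bp at generation 3 in RIL50. DIN10, a raffinose synthase family gene, had 1838 and 1836 bp at generation 10 and 1249 and 833 bp at generation 3 in RIL149.

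Of 18 sulfur deficiency genes, 2 were higher at generation 10 and 3 at generation 3 in RIL149, beside 41.6% and 0.612% of all genes, and in RIL50 0 and 11 were, beside 6.76% and 11.6%. With equal numbers of peaks 1 was higher at generation 10 in RIL149 and 10 at generation 3, beside 27.7% and 2.16% of all genes. The 10 included SDI1, SDI2, LSU1 and LSU3. In those lists of equal length the sulfate transporter SULTR2;1 had 482 and 502 bp at generation 10 and 1394 and 782 bp at generation 3, and APR2, which reduces activated sulfate, had 200 and 259 bp at generation 10 and 291 and 410 bp at generation 3. With all peaks the generations overlapped at APR2, with 410 and 493 bp at generation 10 and 484 and 410 bp at generation 3, and at SULTR2;1, with 899 and 768 bp at generation 10 and 1394 and 782 bp at generation 3. Of 13 phosphate starvation genes, 4 were higher at generation 10 and 4 at generation 3 in RIL149, with equal numbers of peaks 3 and 3, and 0 and 8 in RIL50. PS2 had 630 and 706 bp at generation 10 and 1000 and 815 bp at generation 3 in RIL149, and 612 and 564 bp at generation 10 and 860 and 1138 bp at generation 3 in RIL50. With equal numbers of peaks the generations overlapped at PS2 in RIL149, with 630 and 706 bp at generation 10 and 689 and 815 bp at generation 3. SPX1, an inhibitor of the phosphate response, had 665 and 655 bp at generation 10 and 752 and 734 bp at generation 3 in RIL149. The part of growth, harvest and depth in these differences was not tested.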
